A study of Mus musculus with 8 samples.

Results

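Chromatin modifiers and remodelers are the enzymes and complexes that place, read and remove marks on histones and DNA and that move nucleosomes. The genes described here are the rows of the deposited table whose mouse gene symbol belongs to the Hdac, Sirt, Kdm, Kmt, Setd, Prmt, Dnmt, Tet, Smarc, Arid, Chd or numbered Brd series or names a core subunit of Polycomb repressive complex 2 (Ezh1, Ezh2, Suz12, Eed), with Sirt2 left out. This gave 92 genes of the 10982 listed, each with 1 transcript. They were grouped by role or symbol into 4 PRC2 core subunits, 15 lysine methyltransferases, 16 demethylases, 7 arginine methyltransferases, 15 deacetylases, 9 CHD remodelers, 19 Smarc and ARID genes, 3 bromodomain readers and 4 DNA methylation and demethylation enzymes. The Smarc and ARID group, labelled SWI/SNF and ARID in the figures, follows gene symbols. It also holds Smarca1, Smarca5, Smarcad1 and Smarcal1, which are not SWI/SNF subunits. Other genes of these families, such as Hdac3, Dnmt1, Kmt2a, Prmt1, Smarcd1 and Tet3, were not analysed here.

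The study compared mouse oligodendrocyte progenitor cells (OPCs) with the oligodendrocytes made from them, by ribosome profiling and parallel RNA-seq. The OPCs derived from epiblast stem cells of male 129S/SvEv embryos and grew on poly-L-ornithine and laminin in DMEM/F12 with N2 Max, B27, 20 ng/mL bFGF and 20 ng/mL PDGFA. The oligodendrocytes were differentiated for 3 days in the same base and supplements with 100 ng/mL noggin, 100 ng/mL IGF-1, 10 uM cyclic AMP, 10 ng/mL NT3 and 40 ng/mL thyroid hormone T3, without bFGF or PDGFA. Each of the 2 replicates of either cell type pooled the lysates of several dishes, was cleared of nuclei, and gave 1 RNA-seq library and 1 library of footprints, the fragments that ribosomes protect from micrococcal nuclease. Sequencing of a culture dish averages over its cells, so fewer cells of a type and less RNA per cell cannot be told apart.

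Polycomb repressive complex 2 writes methyl groups on lysine 27 of histone H3, a mark of silenced genes, and Kdm6a and Kdm6b remove them. Histone deacetylases, the BAF (SWI/SNF) remodeler with its ATPase Smarca4, and the remodelers Chd7 and Chd8 are known to be needed for OPCs to become oligodendrocytes, and progenitors leave the cell cycle as they differentiate. The values below are FPKM, fragments scaled to feature length and to library size, over the full transcript in RNA-seq libraries and the coding sequence in footprint libraries, so that levels of different genes can be set side by side. A pair of FPKM values gives replicates 1 and 2 of a cell type in that order, and changes are oligodendrocytes over OPCs on the scale of log2(FPKM + 0.1).

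All 3 PRC2 core subunits that could be tested were lower in oligodendrocyte RNA, and the promoters of Ezh2, Suz12 and Eed are shown for this reason. Each sequence is RefSeq's (GRCm38.p6) from 250 bases before to 50 bases after the annotated start, 5′ to 3′ on the gene's strand. Capitals mark a match to an E2F-like motif, searched on both strands as TTTGGCGC, TTTCCCGC, TTTCGCGC or TTTGCCGC. E2F proteins are transcription factors of the cell cycle.
Ezh2 (chr6:47594981-47595280, minus strand): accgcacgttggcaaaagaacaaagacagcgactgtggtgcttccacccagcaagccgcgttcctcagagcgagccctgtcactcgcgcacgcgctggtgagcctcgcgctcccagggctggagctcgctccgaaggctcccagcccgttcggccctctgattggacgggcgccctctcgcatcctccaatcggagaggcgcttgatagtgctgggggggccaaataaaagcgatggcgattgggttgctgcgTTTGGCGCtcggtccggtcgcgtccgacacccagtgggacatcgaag
Suz12 (chr11:79992856-79993155, plus strand): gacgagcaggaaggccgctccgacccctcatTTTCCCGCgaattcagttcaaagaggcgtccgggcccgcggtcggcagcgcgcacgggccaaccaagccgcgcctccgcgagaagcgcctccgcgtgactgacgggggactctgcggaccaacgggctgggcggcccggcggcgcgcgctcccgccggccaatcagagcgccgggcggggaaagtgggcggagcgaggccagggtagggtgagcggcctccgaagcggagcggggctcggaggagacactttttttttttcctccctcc
Eed (chr7:89980927-89981226, minus strand): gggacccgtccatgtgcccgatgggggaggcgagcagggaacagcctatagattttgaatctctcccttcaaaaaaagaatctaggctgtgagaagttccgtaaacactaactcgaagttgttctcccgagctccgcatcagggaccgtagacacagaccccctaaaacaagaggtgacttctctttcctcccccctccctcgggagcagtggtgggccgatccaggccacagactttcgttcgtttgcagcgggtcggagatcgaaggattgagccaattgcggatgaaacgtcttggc

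The Ezh2 match begins 3 bases after the start and the Suz12 match 219 bases before it, while the Eed window holds none of these letters. RefSeq promoters were matched for 74 of the 92 genes, and 6 of them (8.11%: Arid1a, Brd7, Ezh2, Kmt5c, Sirt4 and Suz12) hold the motif. The share was 4.48% over the 8866 listed genes with a promoter and 2.26% over all 32851 promoters. Of the genes that were lower in oligodendrocyte RNA, 2 of 12 with a promoter hold it, and of those that were higher 0 of 4 do. A match is a description of letters, and binding was not measured.

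The members that changed went in both directions. In RNA-seq the falls included Ezh2, Suz12, Eed, Kmt5a, Prmt3, Prmt5, Hdac2, Hdac6, Hdac7 and Kdm2b. The rises were Chd3, Hdac11, Prmt9, Arid4b, Kdm4b, Kdm5b and Kdm6b. In RNA-seq 84 of the 92 genes reached a mean of 1 FPKM and were tested, and 21 of them (25%) passed an adjusted p of 0.05 in limma, 7 higher and 14 lower in oligodendrocytes. Over all 8346 transcripts tested 33.2% passed, 13% higher and 20.2% lower. In footprints 8 of 85 genes tested (9.41%) passed, 4 higher and 4 lower, against 23.6% of 8342 transcripts, 12.8% higher and 10.8% lower. The difference in these shares was not tested. For the members the median log2 change was 0.023 (RNA-seq) and 0.10 (footprints), beside -0.23 and -0.16 over all transcripts tested.

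The 8 genes that passed in footprints all passed in RNA-seq in the same direction. Higher in both were the remodeler Chd3, the deacetylase Hdac11, the demethylase Kdm6b and the arginine methyltransferase Prmt9. Lower in both were Ezh2, the BAF scaffold Smarcc1 and the arginine methyltransferases Prmt3 and Prmt5. The other 13 genes passed in RNA-seq only, and 12 of these had the same sign of change in footprints, with Hdac6 the exception. The plot of values by library shows the 21 genes together.

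**Figure D1:**
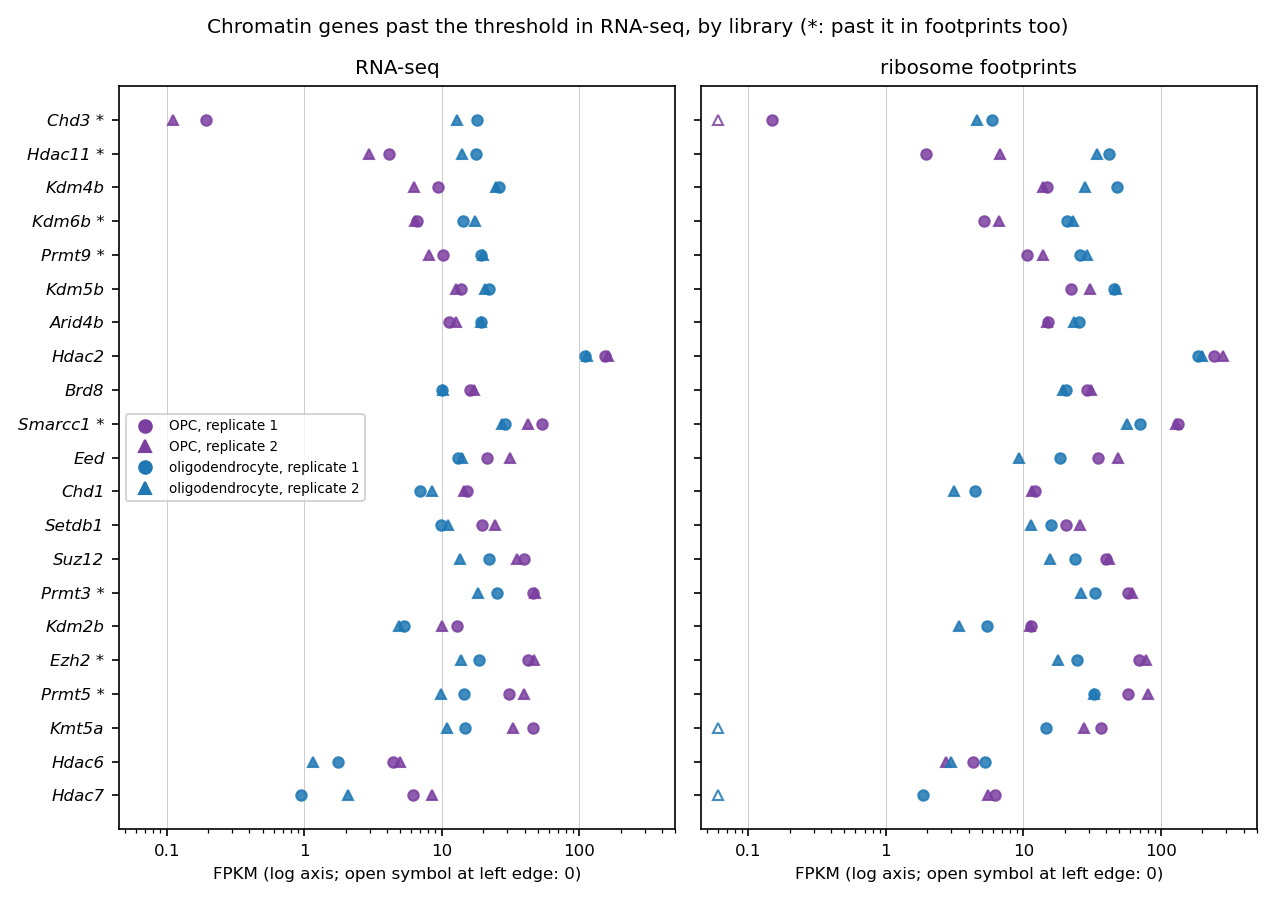
FPKM of the 21 chromatin genes past the threshold in RNA-seq, in RNA-seq (left) and footprints (right), on a log axis; each symbol is 1 library, purple for OPC and blue for oligodendrocyte cultures, and open symbols at the left edge stand for 0. In RNA-seq the OPC and oligodendrocyte symbols do not overlap for any of the 21 genes; in footprints they overlap for Hdac6.

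These calls rest on 2 cultures of each cell type. The p-values set a change against a variance that limma drew from these cultures and from other transcripts of like abundance. Without OPC replicate 1, 2 of the 21 RNA-seq calls remained, and without OPC replicate 2, 1 remained, Chd3. Without oligodendrocyte replicate 1, 13 remained, and without oligodendrocyte replicate 2, 8. Of the 8 footprint calls, 5 remained without oligodendrocyte replicate 1, and 0 without any of the other 3 cultures. Without oligodendrocyte replicate 1, 4 further members passed in RNA-seq and 19 in footprints, where the shallowest library then stands alone. In these fits the lone culture is assumed to vary like the other group. Scaling each library by its median ratio to the others changed the balance in RNA-seq from 7 higher and 14 lower to 13 higher and 9 lower, and the median of all transcripts from -0.23 to -0.051, so the split between directions depends on the scaling while none of the 21 genes changed sign under it.

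In RNA-seq the cultures did not overlap for 30 members that were higher in both oligodendrocyte cultures (35.7%) and 28 that were lower in both (33.3%), against 27.6% and 44.2% of all transcripts tested. In footprints the counts were 28 (32.9%) and 25 (29.4%), against 31.8% and 37.9%. The second oligodendrocyte footprint library was the shallowest of its kind, with an estimated 93 Mb of aligned bases against 207 to 249 Mb in the other 3, and it lists 12 members at 0, against 2 to 7 in the others. RNA-seq depth was estimated at 77.9 to 241 Mb.

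The labelled cell types were checked against markers. The 5 oligodendrocyte markers tested (Cnp, Mag, Mog, Cldn11 and Ugt8a) all rose in RNA-seq and footprints, and their summed RNA-seq level went from 33.6 to 35.5 FPKM in OPCs to 1810 to 2129 FPKM in oligodendrocytes. Of 3 genes used as OPC or lineage markers (Pdgfra, Ptprz1 and Sox10), Pdgfra and Sox10 rose in oligodendrocytes and Ptprz1 did not pass the test. The 7 proliferation genes tested all fell in both kinds of library, from a summed 496 to 656 FPKM to 146 to 163 FPKM in RNA-seq. Of 4 astrocyte markers 2 (Gfap and Slc1a2) and of 4 neuron markers 1 (Tubb3) rose in RNA-seq. Of the microglial markers 2 (P2ry12 and Csf1r) and of the pluripotent markers 1 (Nanog) were analysed, and each set stayed below 1 FPKM in sum. Other markers of these 2 lists were not analysed here, so they were covered only in part. The part of these differences in the results on chromatin genes was not tested.

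**Figure D2:**
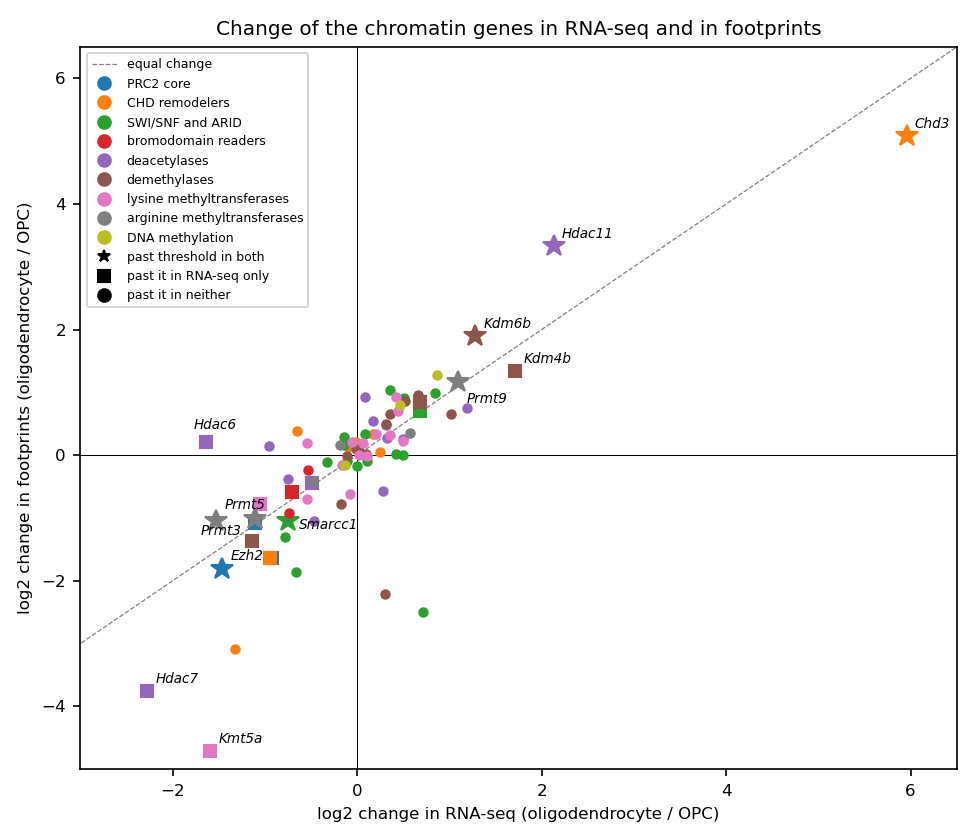
Log2 change of the 84 chromatin genes tested in both kinds of library, RNA-seq on the x axis and footprints on the y axis, coloured by family; stars passed the threshold in both, squares in RNA-seq only, circles in neither, and the dashed line marks equal change. The 4 stars in the upper right are Chd3, Hdac11, Kdm6b and Prmt9, the 4 in the lower left are Ezh2, Prmt3, Prmt5 and Smarcc1, and Hdac6 is the square above 0 in footprints with a fall in RNA-seq.

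Ezh2, the catalytic subunit of PRC2, fell to 0.365 of its OPC level in RNA and 0.288 in footprints. RNA levels were 42.2 and 46.97 FPKM in the OPC cultures against 18.7 and 13.8 FPKM in the oligodendrocyte cultures (log2 change -1.46 ± 0.22 (SE), limma adjusted p = 0.00598). Footprint levels were 69.6 and 78.4 FPKM in the OPC cultures against 24.6 and 17.96 FPKM in the oligodendrocyte cultures (log2 change -1.81 ± 0.22 (SE), limma adjusted p = 0.0136). Every oligodendrocyte value lay below every OPC value in both kinds of library. Ezh2 also moved in order among the 92 genes, from rank 8 by mean RNA level in OPCs to rank 33 in oligodendrocytes.

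Suz12 and Eed, the non-catalytic subunits that Ezh2 needs for activity, fell with it in RNA. Suz12 RNA was at 39.7 and 35.4 FPKM in the OPC cultures against 22.00 and 13.6 FPKM in the oligodendrocyte cultures (log2 change -1.11 ± 0.27 (SE), limma adjusted p = 0.0267). Eed RNA was at 21.3 and 31.6 FPKM in the OPC cultures against 13.2 and 13.9 FPKM in the oligodendrocyte cultures (log2 change -0.93 ± 0.25 (SE), limma adjusted p = 0.0359), a call that did not pass after median-ratio scaling (adjusted p = 0.0712, limma). In footprints Suz12 was at 40.1 and 41.7 against 23.6 and 15.7 FPKM and Eed at 34.8 and 48.6 against 18.4 and 9.302 FPKM. For both genes the footprints of the cultures did not overlap and did not pass the test, while after median-ratio scaling both passed (limma adjusted p = 0.0342 for Suz12 and 0.0410 for Eed), as they did with a minimum of 5 FPKM, with a pseudocount of 1 FPKM and without oligodendrocyte replicate 1. For each of Suz12 and Eed these were 4 of the 12 settings run in footprints. Ezh1, the paralog that can replace Ezh2, stayed below the minimum in RNA-seq at 0.316 and 0.549 against 1.05 and 0.254 FPKM, with Ezh2 above it in all 4 cultures. Ezh2, Suz12 and Eed each overlap an annotated antisense gene in their exons, and the sources used here do not state a strand option for the counting.

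Kdm6b, which removes the mark that PRC2 writes, rose while Ezh2 fell. In RNA-seq it was at 6.58 and 6.34 FPKM in the OPC cultures against 14.3 and 17.5 FPKM in the oligodendrocyte cultures (log2 change 1.28 ± 0.24 (SE), limma adjusted p = 0.0125). In footprints it was at 5.16 and 6.601 FPKM in the OPC cultures against 20.9 and 23.00 FPKM in the oligodendrocyte cultures (log2 change 1.89 ± 0.31 (SE), limma adjusted p = 0.0238). Both oligodendrocyte cultures were above both OPC cultures, at 2.46 times the OPC mean in RNA and 3.73 times in footprints. Its paralog Kdm6a, encoded on the X chromosome, was at 8.69 and 9.71 against 13.7 and 9.59 FPKM in RNA-seq and did not pass the test. Kdm6b overlaps the annotated antisense gene Kdm6bos in its exons, and without strand their reads cannot be told apart.

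Among the 16 demethylases, 3 rose in RNA-seq (Kdm4b, Kdm5b and Kdm6b) and 1 fell (Kdm2b), with 15 tested. Over all transcripts tested in RNA-seq, 13% passed as higher and 20.2% as lower. Kdm4b, a demethylase of lysine 9 of histone H3, was at 9.33 and 6.33 FPKM in the OPC cultures against 26.1 and 24.8 FPKM in the oligodendrocyte cultures (log2 change 1.72 ± 0.26 (SE), limma adjusted p = 0.00643). Its footprint values were 14.8 and 13.9 against 47.7 and 27.9 FPKM, apart between the cell types and past the threshold only under alternatives such as median-ratio scaling (limma adjusted p = 0.0325). Kdm5b, which removes methyl groups from lysine 4 of histone H3, was at 13.9 and 12.7 FPKM in the OPC cultures against 22.2 and 20.7 FPKM in the oligodendrocyte cultures in RNA-seq (log2 change 0.69 ± 0.19 (SE), limma adjusted p = 0.04302) and at 22.2 and 30.3 against 45.4 and 47.4 FPKM in footprints. Kdm2b, a lysine 36 demethylase that also binds unmethylated CpG DNA, was at 12.9 and 9.97 FPKM in the OPC cultures against 5.28 and 4.92 FPKM in the oligodendrocyte cultures (log2 change -1.14 ± 0.27 (SE), limma adjusted p = 0.02604). Kdm2b thus moved against the other 3, and its footprints were lower in both oligodendrocyte cultures as well, at 11.4 and 11.2 against 5.44 and 3.41 FPKM.

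Kdm1a (LSD1) was the most abundant demethylase in both cell types and both kinds of library. Its RNA was at 43.9 and 52.00 against 47.2 and 47.4 FPKM, with the OPC values on either side of the oligodendrocyte values, and its footprints were at 77.04 and 89.7 against 85.02 and 94.1 FPKM. By median log2 change the family stood at 0.31 (RNA-seq) and 0.50 (footprints), and 11 of its 15 tested members were above 0 in each. Over all chromatin genes tested, 43 of 84 were above 0 in RNA-seq and 49 of 85 in footprints. Of all transcripts tested, 59.96% were below 0 in RNA-seq and 55.47% in footprints. The difference was not tested. Kdm5d on the Y chromosome, a homolog of the X-linked Kdm5c that can share reads with it, was listed at 6.86 and 5.18 against 7.39 and 5.52 FPKM in RNA-seq.

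**Figure D3:**
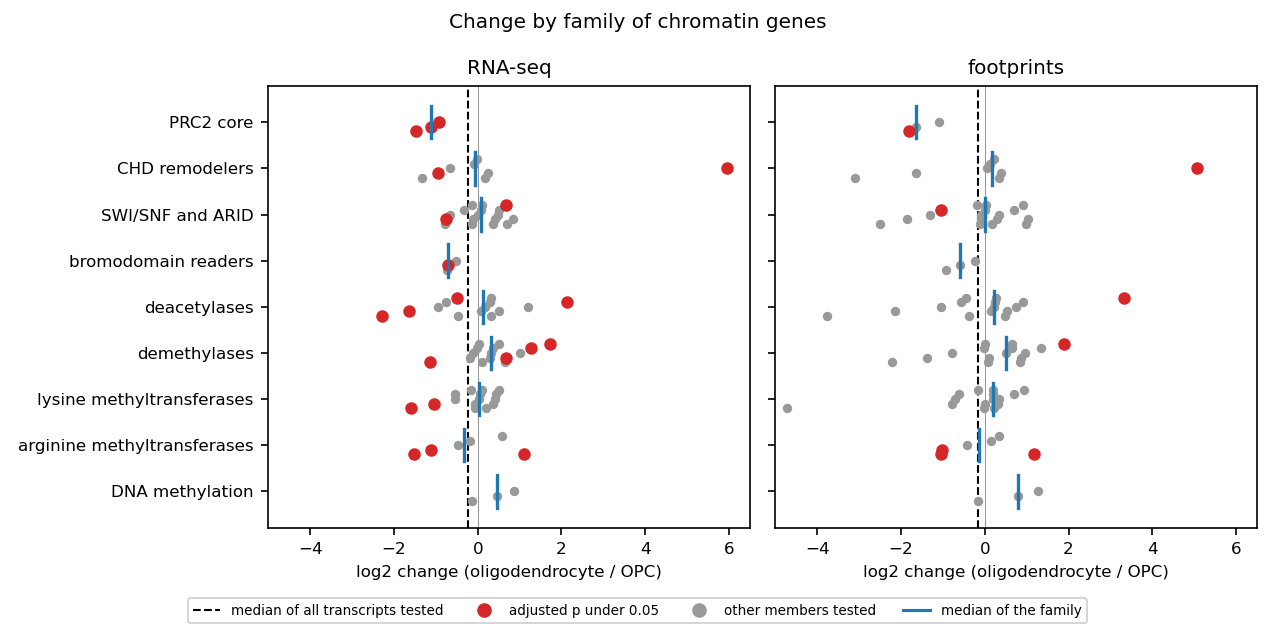
Log2 change of the tested chromatin genes by family, in RNA-seq (left) and footprints (right); each point is 1 gene, red where the adjusted p was under 0.05, the blue bar is the family's median and the dashed line the median of all transcripts tested. The PRC2 core lies to the left in both panels (medians -1.11 and -1.65) and the demethylases mostly to the right (0.31 and 0.50).

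None of the 15 lysine methyltransferases passed the test as higher in either kind of library, and Kmt5a and Setdb1 passed as lower in RNA-seq. Beside them, 13% of all transcripts tested in RNA-seq passed as higher and 20.2% as lower. By sign of change, 8 of the 15 were above 0 in RNA-seq and 9 in footprints. Kmt5a, which places the first methyl group on lysine 20 of histone H4 and is known to act in the cell cycle, was at 45.7 and 32.9 FPKM in the OPC cultures against 14.9 and 10.99 FPKM in the oligodendrocyte cultures (log2 change -1.59 ± 0.26 (SE), limma adjusted p = 0.00774). Its footprints were at 36.4 and 27.6 against 14.6 and 0 FPKM, did not overlap and did not pass the test, and the 0 is in the shallowest footprint library. Setdb1, a lysine 9 methyltransferase, was at 19.7 and 24.4 FPKM in the OPC cultures against 9.96 and 11.1 FPKM in the oligodendrocyte cultures (log2 change -1.05 ± 0.22 (SE), limma adjusted p = 0.0175) and at 20.5 and 25.8 against 15.8 and 11.3 FPKM in footprints. Setdb1 overlaps Cers2 on the opposite strand, and without strand the reads of the pair cannot be told apart.

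The other 13 lysine methyltransferases did not pass in either kind of library. Setd5 had the highest mean RNA level of the family in OPCs, at 45.7 and 35.7 FPKM in the OPC cultures against 27.7 and 27.5 FPKM in the oligodendrocyte cultures, with its oligodendrocyte values below its OPC values. Setd3, an actin histidine methyltransferase, had the highest in oligodendrocytes, at 23.1 and 18.4 against 25.5 and 30.8 FPKM, with the oligodendrocyte values of Setd5 between its own. The lysine 4 methyltransferases Kmt2c and Kmt2d were at 7.81 and 7.82 against 7.87 and 8.46 FPKM and 10.1 and 9.76 against 12.2 and 14.6 FPKM. Setd7, also a lysine methyltransferase of proteins other than histones, gave the family's highest oligodendrocyte footprint mean, at 24.6 and 29.7 against 41.1 and 17.7 FPKM, with its OPC values between its oligodendrocyte values.

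Prmt5 and Prmt3 fell and Prmt9 rose among the 6 arginine methyltransferases tested, in both kinds of library. The shares over all transcripts tested were 13% higher and 20.2% lower in RNA-seq and 12.8% and 10.8% in footprints. Prmt5, which places symmetric dimethylarginine on histones and on splicing proteins, had RNA at 30.6 and 39.8 FPKM in the OPC cultures against 14.5 and 9.94 FPKM in the oligodendrocyte cultures (log2 change -1.53 ± 0.26 (SE), limma adjusted p = 0.00944). Footprint levels were 57.5 and 80.4 FPKM in the OPC cultures against 32.9 and 32.7 FPKM in the oligodendrocyte cultures (log2 change -1.05 ± 0.22 (SE), limma adjusted p = 0.0388). The fall was 2.88 times by mean RNA and 2.104 times by mean footprints, with no overlap of the cultures in either.

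Prmt3, an enzyme known for methylating a protein of the small ribosomal subunit, had RNA at 45.8 and 47.7 FPKM in the OPC cultures against 25.2 and 18.4 FPKM in the oligodendrocyte cultures (log2 change -1.11 ± 0.21 (SE), limma adjusted p = 0.0126). In footprints it was at 57.3 and 62.1 FPKM in the OPC cultures against 33.2 and 26.4 FPKM in the oligodendrocyte cultures (log2 change -1.01 ± 0.19 (SE), limma adjusted p = 0.0305), and with the replicate number as a block the footprint change did not pass (limma adjusted p = 0.0525). Prmt9, which methylates the splicing factor Sf3b2, was higher in both oligodendrocyte cultures, with RNA at 10.2 and 8.14 FPKM in the OPC cultures against 19.2 and 20.1 FPKM in the oligodendrocyte cultures (log2 change 1.09 ± 0.23 (SE), limma adjusted p = 0.0167). Its footprint values were 10.6 and 13.9 FPKM in the OPC cultures against 25.6 and 29.1 FPKM in the oligodendrocyte cultures (log2 change 1.17 ± 0.26 (SE), limma adjusted p = 0.0465), and this call also did not pass with the block (limma adjusted p = 0.0716), or after median-ratio scaling (limma adjusted p = 0.0547). Prmt7 and Prmt6 did not pass, at 31.7 and 33.3 against 21.8 and 24.9 FPKM and 11.7 and 13.04 against 10.5 and 11.2 FPKM in RNA-seq. Prmt2 RNA was at 14.3 and 14.6 against 21.2 and 21.96 FPKM, higher in both oligodendrocyte cultures, and passed the test only after median-ratio scaling (limma adjusted p = 0.0311).

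Hdac11 rose and Hdac2, Hdac6 and Hdac7 fell in RNA-seq among the 14 deacetylases tested. Of all transcripts tested in RNA-seq, 13% passed as higher and 20.2% as lower. In footprints 1 of 15 deacetylases, Hdac11, passed as higher and 0 as lower, beside 12.8% and 10.8% of all transcripts. Hdac11, the only class IV deacetylase and known in this lineage, had RNA at 4.14 and 2.98 FPKM in the OPC cultures against 17.6 and 14.00 FPKM in the oligodendrocyte cultures (log2 change 2.13 ± 0.30 (SE), limma adjusted p = 0.00532). Its footprints were at 1.96 and 6.800 FPKM in the OPC cultures against 41.6 and 34.03 FPKM in the oligodendrocyte cultures (log2 change 3.32 ± 0.68 (SE), limma adjusted p = 0.0384). The OPC footprint values lie apart from each other and still below both oligodendrocyte values. Mean levels were 4.44 times higher in oligodendrocytes in RNA and 8.64 times higher in footprints. Its exons overlap the antisense genes Gm14573 and Gm44002.

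Hdac2, a catalytic subunit of corepressor complexes, was the most abundant of all 92 genes in both cell types and both kinds of library. RNA levels were 153 and 163 FPKM in the OPC cultures against 111 and 114 FPKM in the oligodendrocyte cultures (log2 change -0.49 ± 0.14 (SE), limma adjusted p = 0.0436), a fall that did not pass after median-ratio scaling (adjusted p = 0.181, limma). Footprint levels were 244 and 285 against 186 and 201 FPKM, lower in both oligodendrocyte cultures and not past the threshold. Hdac1, which shares those complexes, was at 19.6 and 25.3 against 23.9 and 26.4 FPKM in RNA-seq and at 48.7 and 58.5 against 68.7 and 87.7 FPKM in footprints. Hdac1 did not pass in either, and its cultures overlapped in RNA-seq but not in footprints.

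Hdac6, a cytoplasmic deacetylase of tubulin, was the only RNA-seq call with the opposite sign of change in footprints. In RNA-seq it was at 4.43 and 4.96 FPKM in the OPC cultures against 1.77 and 1.16 FPKM in the oligodendrocyte cultures (log2 change -1.64 ± 0.43 (SE), limma adjusted p = 0.0348). That call did not pass without a minimum FPKM, and the oligodendrocyte RNA values rest on an estimated 883 and 376 aligned bases. In footprints Hdac6 was at 4.29 and 2.73 against 5.304 and 2.99 FPKM and its cultures overlapped. The sign in footprints rests on single cultures, since the log2 change of 0.21 became -0.19 without oligodendrocyte replicate 1 and -0.11 without OPC replicate 2. Ribosome density, the ratio of footprint to RNA-seq FPKM, was 0.970 and 0.551 in OPCs and 2.99 and 2.56 in oligodendrocytes. The change in density had an unadjusted p = 0.0487 and an adjusted p = 0.875 in limma, so it did not pass over all transcripts.

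Hdac7, a class IIa deacetylase, had RNA at 6.19 and 8.48 FPKM in the OPC cultures against 0.949 and 2.097 FPKM in the oligodendrocyte cultures (log2 change -2.27 ± 0.49 (SE), limma adjusted p = 0.0195) and footprints at 6.22 and 5.54 against 1.85 and 0 FPKM. It overlaps Slc48a1 on the opposite strand, and its oligodendrocyte footprints rest on an estimated 1113 and 0 aligned bases. No sirtuin passed in RNA-seq or footprints as first fitted. Sirt1, a nuclear deacetylase that depends on NAD, was at 6.700 and 9.65 against 5.13 and 4.35 FPKM and Sirt7 at 8.44 and 4.300 against 13.8 and 14.01 FPKM in RNA-seq. Sirt7 was higher and Sirt1 lower in both oligodendrocyte cultures. Sirt7 passed in RNA-seq with the replicate block (limma adjusted p = 0.0235), after median-ratio scaling (limma adjusted p = 0.03698), with a minimum of 5 FPKM and with a pseudocount of 1 FPKM. These were 4 of the 12 settings run. Sirt5 footprints were at 1.82 and 4.11 FPKM in OPCs against 3.98 and 0 FPKM in oligodendrocytes, and overlapped. The 0 is in the shallowest footprint library. Sirt6, with RNA between 1.74 and 3.33 FPKM, had footprints at 14.02 and 10.5 against 13.9 and 15.1 FPKM.

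Chd3 had the largest change of the tested members in both kinds of library and was listed near 0 in OPCs. Its RNA was at 0.192 and 0.1102 FPKM in the OPC cultures against 18.1 and 12.9 FPKM in the oligodendrocyte cultures (log2 change 5.96 ± 0.51 (SE), limma adjusted p = 0.00132), 103 times higher by the means. Its footprint values were 0.148 and 0 FPKM in the OPC cultures against 5.87 and 4.63 FPKM in the oligodendrocyte cultures (log2 change 5.08 ± 1.07 (SE), limma adjusted p = 0.0413). The RNA call passed in the main fit and under all 11 alternatives. The footprint call did not pass with the replicate block (limma adjusted p = 0.0902), with a pseudocount of 0.01 FPKM (limma adjusted p = 0.0837) or without OPC replicate 1, OPC replicate 2 or oligodendrocyte replicate 2, and the OPC footprints rest on an estimated 228 and 0 aligned bases. Chd3 is an ATPase of the nucleosome remodeling and deacetylase (NuRD) complex and lies on chromosome 11 (chr11:69343273-69369406, minus strand, 40 exons, GRCm38), with Kdm6b 29101 bases away (chr11:69398508-69413675, minus strand, 23 exons).

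Chd4, the NuRD ATPase related to Chd3, stayed the most abundant CHD gene. RNA levels were 85.1 and 70.3 FPKM in the OPC cultures against 80.8 and 72.2 FPKM in the oligodendrocyte cultures, overlapping, and its footprints were at 104 and 108 against 123.5 and 122 FPKM. Chd1, which binds histone H3 methylated on lysine 4, was the only other CHD gene to pass, with RNA at 15.2 and 14.5 FPKM in the OPC cultures against 6.98 and 8.44 FPKM in the oligodendrocyte cultures (log2 change -0.94 ± 0.23 (SE), limma adjusted p = 0.0291) and no call after scaling (adjusted p = 0.0604, limma). Its footprints were lower in both oligodendrocyte cultures, at 12.1 and 11.6 against 4.43 and 3.14 FPKM, and passed after median-ratio scaling (limma adjusted p = 0.0485) but not before it. Chd7 and Chd8, known regulators of oligodendrocyte development, were at 19.1 and 15.9 against 19.9 and 21.6 FPKM and 12.5 and 13.1 against 11.5 and 12.4 FPKM in RNA-seq. Neither passed in RNA-seq or footprints. Chd5, a remodeler known from neurons, was below the minimum at 0.0376 and 0.0685 against 0.492 and 0.465 FPKM in RNA-seq and at 0 in all 4 footprint libraries.

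Smarcc1, a core scaffold subunit of BAF complexes, was the only gene of the Smarc and ARID group to pass as lower in both kinds of library. Of the BAF partners in the wider list described below, Bcl7c and Phf10 also passed as lower in both, and Bcl7a passed as higher in footprints. In RNA-seq Smarcc1 was at 53.2 and 42.3 FPKM in the OPC cultures against 28.9 and 27.6 FPKM in the oligodendrocyte cultures (log2 change -0.75 ± 0.19 (SE), limma adjusted p = 0.02900), and this call did not pass after scaling (adjusted p = 0.0655, limma). Its footprints were at 133 and 129 FPKM in the OPC cultures against 70.3 and 56.8 FPKM in the oligodendrocyte cultures (log2 change -1.05 ± 0.15 (SE), limma adjusted p = 0.0191). All oligodendrocyte values of Smarcc1 were below all its OPC values. The ATPase Smarca4 was the most abundant subunit by RNA in both cell types, at 71.9 and 62.98 against 65.96 and 58.6 FPKM, and Smarcb1 by footprints, at 189.7 and 195 against 189 and 173 FPKM. For neither gene did the change pass the test.

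Arid4b, a subunit of the Sin3 corepressor complex, was the only other gene of the 17 tested in this group to pass. Its RNA was at 11.2 and 12.8 FPKM in the OPC cultures against 19.3 and 19.3 FPKM in the oligodendrocyte cultures (log2 change 0.68 ± 0.20 (SE), limma adjusted p = 0.0488) and its footprints were at 15.1 and 14.8 against 25.6 and 23.3 FPKM. Smarca2, the alternative ATPase to Smarca4, was at 11.4 and 12.2 against 16.6 and 17.00 FPKM in RNA-seq and 15.04 and 12.2 against 25.1 and 26.1 FPKM in footprints. Arid1b, the alternative to Arid1a in BAF, was at 7.52 and 5.56 against 12.8 and 10.6 FPKM and 11.1 and 10.8 against 21.99 and 21.7 FPKM. Both were higher in both oligodendrocyte cultures in both kinds of library, and neither passed the test. Arid1b passed in RNA-seq with the replicate block (limma adjusted p = 0.0468), and both passed there after median-ratio scaling. Smarcd3 RNA was at 14.8 and 12.4 against 10.2 and 5.96 FPKM, lower without passing. The group's median log2 change was 0.083 (RNA-seq) and 0.0031 (footprints).

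Brd8, a subunit of the TIP60 acetyltransferase complex, fell in RNA-seq among the 3 bromodomain readers. RNA levels were 16.1 and 17.3 FPKM in the OPC cultures against 10.1 and 10.2 FPKM in the oligodendrocyte cultures (log2 change -0.71 ± 0.21 (SE), limma adjusted p = 0.0462), with an adjusted p = 0.09701 (limma) after scaling. Footprint levels were 29.1 and 30.96 against 20.4 and 19.5 FPKM. Brd3, a BET protein that binds acetylated histones, was at 18.98 and 18.3 against 13.9 and 11.9 FPKM, and Brd7, a subunit of the PBAF form of SWI/SNF, was at 24.6 and 30.9 against 20.99 and 12.97 FPKM. All 3 had RNA that was lower in both oligodendrocyte cultures, and only Brd8 passed.

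None of the 3 DNA methylation genes tested passed in RNA-seq or footprints as first fitted. Dnmt3a, a de novo DNA methyltransferase, was at 16.7 and 13.2 FPKM in the OPC cultures against 33.2 and 22.1 FPKM in the oligodendrocyte cultures (log2 change 0.86 ± 0.27 (SE), limma adjusted p = 0.0543). In footprints it was at 28.6 and 26.3 FPKM in the OPC cultures against 87.5 and 50.6 FPKM in the oligodendrocyte cultures (log2 change 1.27 ± 0.31 (SE), limma adjusted p = 0.0569). Both oligodendrocyte cultures were above both OPC cultures, and with the replicate block Dnmt3a passed in both kinds of library (limma adjusted p = 0.0161 in RNA-seq and 0.0464 in footprints). It also passed in both after median-ratio scaling (limma adjusted p = 0.02505 and 0.0296), with a minimum of 5 FPKM and with a pseudocount of 1 FPKM, and in footprints without either oligodendrocyte culture. In all, Dnmt3a passed in 4 of the 12 settings in RNA-seq and 6 of the 12 in footprints. Dnmt3b, the other de novo enzyme, was below the minimum in RNA-seq at 1.34 and 1.23 FPKM in the OPC cultures against 0.252 and 0 FPKM in the oligodendrocyte cultures. The Tet enzymes oxidise methylcytosine. Tet1 was at 6.63 and 5.23 against 6.35 and 4.51 FPKM and Tet2 at 5.25 and 5.57 against 7.22 and 7.82 FPKM in RNA-seq, where Tet2 was higher in both oligodendrocyte cultures and Tet1 overlapped.

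Ratios of related genes within a library do not depend on how libraries are scaled to each other. With 2 cultures against 2 the exact two-sided permutation test cannot give a p-value below 0.33, so these ratios are described by their values. The Smarca2 to Smarca4 ratio was 0.158 and 0.193 in OPCs and 0.252 and 0.2900 in oligodendrocytes in RNA-seq and 0.1404 and 0.109 in OPCs and 0.244 and 0.257 in oligodendrocytes in footprints. For Arid1b to Arid1a it was 0.467 and 0.357 in OPCs and 0.789 and 0.612 in oligodendrocytes in RNA-seq and 0.527 and 0.509 in OPCs and 0.778 and 0.865 in oligodendrocytes in footprints. Hence both alternative BAF subunits were nearer in level to their partner in every oligodendrocyte culture than in any OPC culture, while Smarca4 and Arid1a stayed the more abundant.

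The Hdac1 to Hdac2 ratio was 0.128 and 0.155 in OPCs and 0.215 and 0.232 in oligodendrocytes in RNA-seq and 0.1996 and 0.205 in OPCs and 0.369 and 0.437 in oligodendrocytes in footprints. Kdm6b over Kdm6a was 0.757 and 0.653 in OPCs and 1.05 and 1.83 in oligodendrocytes in RNA-seq and 0.823 and 0.943 in OPCs and 1.95 and 2.800 in oligodendrocytes in footprints. The order of these H3 lysine 27 demethylases thus turned, with Kdm6a ahead in all OPC libraries and Kdm6b ahead in all oligodendrocyte libraries. Hdac11 over Hdac8 was 0.681 and 0.3503 in OPCs and 2.799 and 6.66 in oligodendrocytes in RNA-seq, where the order also turned, and 0.116 and 0.2599 in OPCs and 1.68 and 1.55 in oligodendrocytes in footprints. Chd3 over Chd4 was 0.00226 and 0.00157 in OPCs and 0.224 and 0.179 in oligodendrocytes in RNA-seq, so Chd4 remained ahead.

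Kdm5b over Kdm5c was 0.419 and 0.508 in OPCs and 0.743 and 0.719 in oligodendrocytes in RNA-seq and 0.821 and 1.03 in OPCs and 1.38 and 1.79 in oligodendrocytes in footprints, again without overlap. Ezh1 over Ezh2 was 0.00749 and 0.0117 in OPCs and 0.0562 and 0.0184 in oligodendrocytes in RNA-seq. Hdac5 over Hdac4, both class IIa deacetylases, was 3.81 and 3.83 in OPCs and 3.900 and 11.3 in oligodendrocytes in RNA-seq and overlapped in footprints. Smarca1 over Smarca5, the ISWI ATPases, overlapped in RNA-seq at 0.0421 and 0.01001 in OPCs and 0.0683 and 0.02303 in oligodendrocytes. Dnmt3a over Dnmt3b was 12.4 and 10.8 in OPCs and 132 in oligodendrocyte replicate 1, with Dnmt3b at 0 in the other oligodendrocyte culture.

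**Figure D4:**
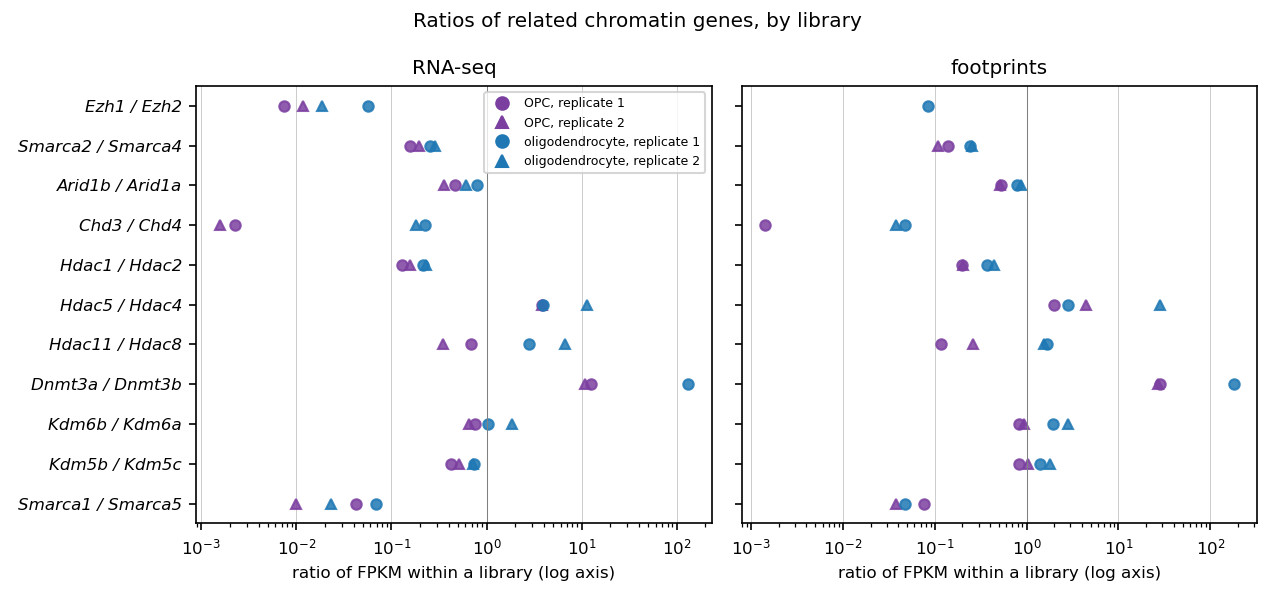
Ratio of FPKM of 2 related chromatin genes within each library, in RNA-seq (left) and footprints (right), on a log axis; each symbol is 1 library, a library with either gene at 0 is not drawn, and the grey line marks equal levels. Kdm6b over Kdm6a crosses the grey line between OPCs (0.653 to 0.757 in RNA-seq) and oligodendrocytes (1.05 to 1.83), while Smarca1 over Smarca5 overlaps.

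No chromatin gene passed the test for a change in ribosome density. The fit treated the libraries as independent, although each culture gave both a footprint and an RNA-seq library. A fit that pairs them within a culture was not run, so the test does not show that density was unchanged. Of 84 genes tested 0 passed an adjusted p of 0.05 in limma and 1, Hdac6, had an unadjusted p under 0.05, and limma without the variance trend also called 0. Over all 8056 transcripts 0.0124% passed and 387 (4.8%) had an unadjusted p under 0.05. The median change in log2 density was 0.056 for the members and 0.10 for all transcripts, which became -0.11 and -0.058 under median-ratio scaling. The members' median density was 1.22 and 1.302 in OPCs and 1.496 and 1.13 in oligodendrocytes, below the 1.72, 1.77, 2.02 and 1.95 of all transcripts in the same cultures.

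Between chromatin genes the mean density over the cultures ran from 0.214 to 4.93. The genes named in this paragraph are the ends of the order over the 78 genes with a value in every culture, and were chosen after their values were seen. Chd2 had the lowest density, at 0.128 and 0.169 in OPCs and 0.282 and 0.346 in oligodendrocytes. Tet1 was at 0.233 and 0.359 in OPCs and 0.364 and 0.216 in oligodendrocytes. Kmt2e was at 0.342 and 0.293 in OPCs and 0.359 and 0.234 in oligodendrocytes. These are long genes, and Setdb2 and Kmt2c, of 713 and 4904 codons, followed. At the other end Sirt6, a nuclear sirtuin, was at 4.85 and 6.02 in OPCs and 4.47 and 4.54 in oligodendrocytes. Hdac8 was at 2.77 and 3.07 in OPCs and 3.92 and 10.5 in oligodendrocytes. Its 10.5 rests on an estimated 317 aligned bases of RNA-seq, and the Sirt6 densities on 491 to 1321. Smarcb1 was at 3.52 and 3.61 in OPCs and 3.56 and 2.69 in oligodendrocytes. These 3 have 334 to 385 codons.

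Over the 78 genes, 15 had a density below 1 in all 4 cultures and 5 had one above 2 in all 4. The shares over all transcripts were not computed for these cutoffs, and the median density of all transcripts was 1.72 to 2.02. The order in OPCs and in oligodendrocytes had a Spearman rho of 0.81. Density and coding length had a rho of -0.60 over the 78 genes and -0.52 over 6867 listed transcripts, a relation that the members share with listed transcripts at large. These are correlations across genes, which share libraries and are not independent replicates. By family the median density was lowest for the DNA methylation enzymes (0.529), CHD remodelers (0.585) and lysine methyltransferases (0.810). It was highest for the Smarc and ARID group (1.67) and deacetylases (1.58).

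**Figure D5:**
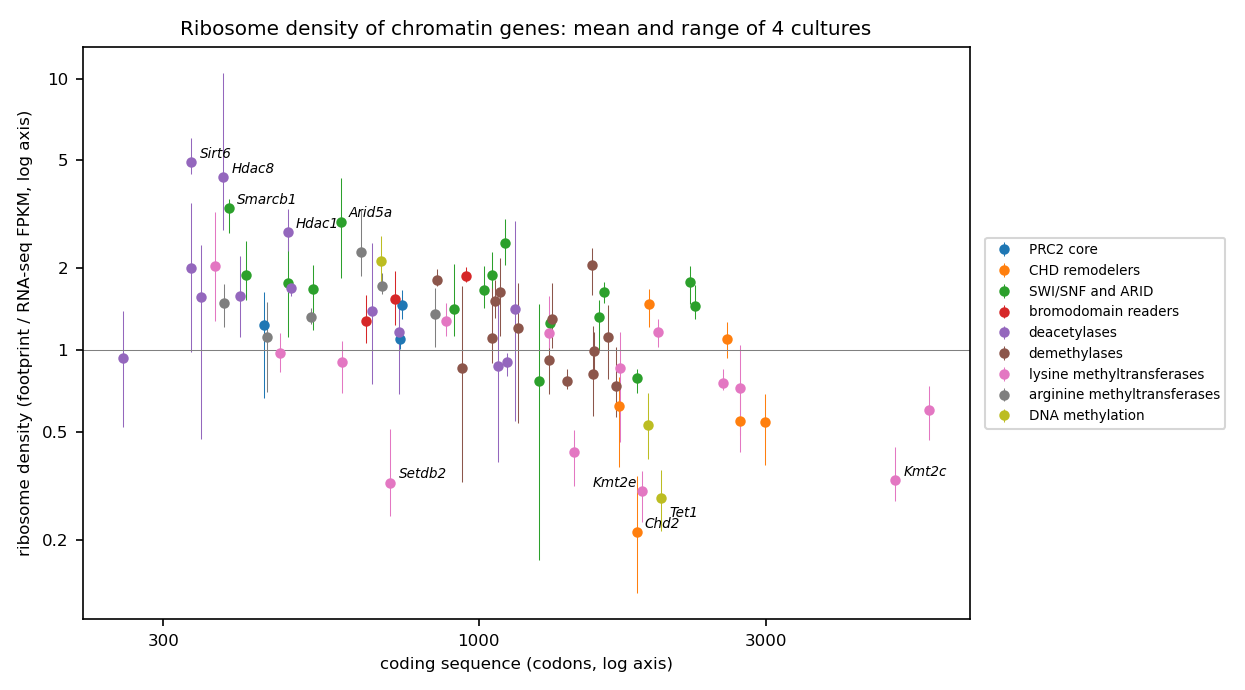
Ribosome density (footprint over RNA-seq FPKM, log axis) of the 78 chromatin genes with a value in all 4 cultures against coding length in codons (log axis); points are geometric means over the 4 cultures, vertical lines reach from the lowest to the highest culture, and colours mark the family. Longer genes sit lower, with Chd2 lowest (0.214) and Sirt6 highest (4.93).

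The study related codon content, in particular AAA for lysine and UUU for phenylalanine, to mRNA half-life and ribosome pausing in these cells. Both shares were computed here from the Gencode vM21 coding sequences. They are set beside changes in RNA and footprint level, which are not half-lives or pause scores, so they do not bear directly on decay. Members are long, with a median of 945.5 codons against 458 over all listed transcripts. AAA made up a median of 39.9% of lysine codons against 36.8%, and UUU 52.4% of phenylalanine codons against 42.9%. The 14 genes that fell in RNA-seq had a median AAA share of 45% (20% to 62.5%) and UUU share of 61.5%. The 7 that rose had 25.4% (13.5% to 60%) and 42.9%, and the 63 that did not pass had 38.5% and 52.2%. The ranges overlap, since Arid4b, which rose, has 60% AAA and 75% UUU.

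Eed, Suz12 and Ezh2 had AAA shares of 62.5%, 60.7% and 53.3% and UUU shares of 64.3%, 68.8% and 77.4%. Kdm4b, Chd3, Hdac11 and Kdm6b had AAA shares of 13.5%, 24.9%, 25% and 25.4% and UUU shares of 21.6%, 31.7%, 42.9% and 37.8%. Prmt9 and Kdm5b, which also rose, had AAA shares of 44.2% and 47.1%, and Hdac6 and Kdm2b, which fell, had 20% and 23.8%. Over the 84 members the log2 change in RNA-seq had a Spearman rho of -0.22 with the AAA share and -0.17 with the UUU share, beside -0.06 and -0.084 over all transcripts. Over the footprints of 85 members rho was -0.14 and -0.25. These weak relations across genes, which share libraries and base composition, are given as a description.

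In RNA-seq 8 members fell below the minimum, and in footprints 7. Those in RNA-seq were Arid3a, Arid3b, Chd5, Dnmt3b, Ezh1, Kdm4d, Prmt8 and Sirt5. Prmt8, a membrane-bound arginine methyltransferase known from neurons, was listed at 0 in both OPC cultures and at 1.35 and 0.367 FPKM in oligodendrocytes in RNA-seq. Without a minimum it passed in RNA-seq (limma adjusted p = 0.0451), and no fold is given against a group at 0. Arid3b was above 0 in 1 library of 8, oligodendrocyte RNA-seq replicate 1, at 0.187 FPKM. Members had a median RNA level of 10.7 FPKM in OPCs and 12.6 FPKM in oligodendrocytes, against 7.28 and 6.17 FPKM over all listed transcripts.

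A wider list of 108 other chromatin genes, both partners of these complexes and further enzymes, held 81 listed genes. Of these, 78 were tested in each kind of library. In RNA-seq 1 rose and 22 fell, beside 13% and 20.2% of all transcripts tested, and in footprints 3 rose and 15 fell, beside 12.8% and 10.8%. Most of the list did not pass, and its median change was -0.41 in both, beside -0.23 and -0.16 over all transcripts. The gene that rose in both kinds of library was Jarid2, an accessory subunit of PRC2, with RNA at 12.4 and 10.1 against 19.6 and 18.1 FPKM (log2 change 0.74 ± 0.22 (SE), limma adjusted p = 0.0472). Among the 14 that fell in both, the largest changes were those of Hells, a remodeler needed for DNA methylation, at 28.2 and 27.5 against 2.78 and 2.74 FPKM (log2 change -3.29 ± 0.24 (SE), limma adjusted p = 0.000855), and Uhrf1, which brings the maintenance DNA methyltransferase to replicated DNA, at 76.2 and 55.3 against 9.82 and 10.6 FPKM (log2 change -2.66 ± 0.22 (SE), limma adjusted p = 0.00119). Hat1, which acetylates newly made histone H4, was at 103 and 98.2 against 24.7 and 20.2 FPKM (log2 change -2.16 ± 0.17 (SE), limma adjusted p = 0.00115).

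Of the 9 listed genes of lysine 9 methylation and heterochromatin protein 1, 6 fell in RNA-seq and 4 in footprints, and none rose, beside the 20.2% and 10.8% of all transcripts that fell. Cbx5, a heterochromatin protein 1, was at 168 and 165 against 82.3 and 73.4 FPKM in RNA-seq and 496 and 478 against 237 and 209 FPKM in footprints. Of 8 NuRD partners 2 fell in both kinds of library (Mbd3 and Rbbp7), beside the same 20.2% and 10.8% of all transcripts. Rbbp7, a histone chaperone that PRC2 and NuRD share, was at 122 and 128 against 44.6 and 42.5 FPKM. In the same libraries the 7 proliferation genes fell from a summed 1313 to 1450 FPKM to 340 to 357 FPKM in footprints, and the part of dividing cells in these falls, that of Ezh2 included, was not tested.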

How the data were processed

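Ribosome footprints and total RNA of 2 OPC and 2 oligodendrocyte cultures gave 8 libraries, grouped by the cell type and library kind in their labels. The authors trimmed adapters, mapped reads to GRCm38 with HISAT2 2.1.0 and deposited FPKM values from StringTie 1.3.5, on canonical coding transcripts of Gencode vM9. FPKM hold no counts, and depth was estimated from the steps of the lowest values, with a possible factor of 2. Any shift in RNA content per cell is lost in FPKM. Columns were used as deposited. Changes were tested with limma 3.58.1 (R 4.3.3, two-sided, eBayes with a variance trend) on log2(FPKM + 0.1) over all transcripts averaging 1 FPKM or more, with Benjamini-Hochberg adjustment at 0.05. Ribosome density was the interaction over 8 libraries, without pairing the footprint and RNA-seq library of a culture. The tests were tested on simulated data. The study's oligodendrocytes came from corresponding OPC replicates, and equal numbers were read as pairs, although neither labels nor methods tie the numbers (correlation of deviations 0.108 in RNA-seq and 0.086 in footprints), and the block is an alternative. Named genes were those past the threshold, the most abundant of each family, pairs of related genes, genes known in the lineage and genes listed at 0 or below the minimum. The members and lists were chosen with earlier results of these data known. Annotation came from Gencode vM21 (GRCm38), with all 92 transcripts found, and figures from Python 3.11.15 with matplotlib 3.10.9. In all, 11 alternatives were tried. Groups of 2 allow no outlier test.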

Additional observations from a re-analysis of the deposited data

How the results depend on the processing

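Counts of members past the threshold moved with most choices, and the cause was not tested. Median-ratio scaling gave 13 higher and 9 lower in RNA-seq and 7 lower in footprints. Of all RNA-seq calls, 39.1% were higher before that scaling and 51.5% after it. Without the variance trend 9 were lower in RNA-seq, and 2 were higher and 1 lower in footprints. Leaving out a culture gave 1 to 5 higher and 0 to 12 lower in RNA-seq, 0 to 6 higher and 0 to 18 lower in footprints and 0 to 5 lower in ribosome density. The highest footprint and density counts came without oligodendrocyte replicate 1, which leaves the shallowest footprint library alone. With the replicate block 10 were higher and 14 lower in RNA-seq and 3 higher and 3 lower in footprints, and it changed no call other than those of Chd3, Prmt3, Prmt9, Dnmt3a, Arid1b and Sirt7. Other pseudocounts and minimums gave 6 to 9 higher and 10 to 15 lower in RNA-seq. The 21 genes called in RNA-seq and the 8 in footprints kept their direction under all alternatives run, and Hdac6 footprints, not called, ran from -0.19 without oligodendrocyte replicate 1 to 0.62 without oligodendrocyte replicate 2 around a value of 0.21, and turned to -0.11 without OPC replicate 2. Depth limits genes below 1 FPKM and the second oligodendrocyte footprint library, in which 16 members have fewer than 300 aligned bases.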
